A study of Mus musculus with 3 samples.

Results

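Chemokine ligands are small secreted or membrane-bound proteins that steer leukocytes and other cells by binding G protein-coupled receptors. The CC, CXC, XC and CX3C families are named for the spacing of their cysteines. Inflammatory members are made on demand in wounds, where Cxcr2 ligands draw neutrophils and Ccr2 ligands draw monocytes, while homeostatic members such as Cxcl12, Ccl19 and Ccl21a position cells within tissues. In a healing fracture they are known for ordering the entry of myeloid cells and for the niches of vessels and progenitors. Here the chemokine ligands were chosen by gene symbol alone, as every row of the count matrix whose symbol starts with Ccl, Cxcl, Xcl or Cx3cl followed by a digit. This gave 44 rows of 32285, with 38 different symbols.

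The cells came from fracture callus of female C3H/HeJ mice, 9 weeks old at surgery, in which the femur had been pinned and broken at midshaft. Mice were injected under the skin every day with PTH, a fragment of parathyroid hormone, at 100 µg/kg, with YKL-05-099, a small-molecule inhibitor of salt-inducible kinases, at 15 mg/kg, or with the PBS vehicle. The callus was taken at day 7 by the samples' own labels (the series' design text gives later days of euthanasia and calls the single-cell time points early), marrow was avoided, and the tissue was digested with collagenase before droplet capture and 3′ single-cell sequencing. There was 1 library per treatment, and how many mice went into each is not stated in those sources. No difference between libraries could therefore be tested: each is given with an interval that covers counting error only, and animal, digestion and treatment cannot be told apart.

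The deposited matrices held 5286 barcodes in the PTH library, 1500 in the YKL library and 8021 in the control library, with 33981167, 19424073 and 55250651 unique molecular identifiers (UMIs, 1 per captured transcript). After filters on detected genes and mitochondrial reads, 1913 PTH, 606 YKL and 2944 control cells were kept. Their median depths were 12293, 25868 and 11736 UMIs. The share of barcodes over the mitochondrial limit of 10% was 44.5% in the PTH library, 18.5% in the YKL library and 17.6% in the control library. The PTH and control libraries shared 8 cell barcodes, the YKL and control libraries 3, and the YKL and PTH libraries 2. Cells were grouped into 27 clusters without using any chemokine ligand, so no member formed or named the class in which it is described. Clusters were called chondrocyte-like, endothelial-like and so on from marker lists, and 6 kept only their number. The labelled callus was recognisable in all libraries: chondrocyte-like cells made up 607 of 1913 PTH, 414 of 606 YKL and 1375 of 2944 control cells.

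Of the 44 rows, 31 had at least 1 UMI in the kept cells and 25 reached the 50 UMIs set for a measured member. The measured members ranged from Cxcl2 with 8837 UMIs, Cxcl12 with 6787 and Cxcl14 with 6595, down to Ccl27a with 107 and Cxcl9 with 53. Ccl5 had 2555 UMIs, Ccl9 1865, Ccl8 1262 and Ccl11 490. A further 6 members were under the limit, namely Cxcl5 with 39 UMIs, Ccl17 with 23, Ccl22 with 12, Cxcl13 and Cxcl17 with 3 each and Ccl28 with 1. The other 13 rows had no UMI in any kept cell, so each is below the limit of 3 that a count of 0 allows. They are Ccl1, Ccl20, Ccl26, Cxcl15 and further rows of the Ccl21, Ccl27 and Ccl19 genes. Those genes have near-identical copies between which reads could not always be assigned, so the values of Ccl21a, Ccl27a and Ccl19 are uncertain in that respect.

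Levels are counts of a member per 1000000 UMIs of the same cells (CPM). Chemokine ligands made up 611 CPM of the kept PTH cells, 232 CPM of the YKL cells and 633 CPM of the control cells. The PTH and control totals were close, but different cells held them. Endothelial-like cells held 32.6% of all chemokine UMIs in the PTH library, 17.0% in the YKL library and 9.88% in the control library. Fibroblast-like cells held 27.0%, 3.82% and 5.83% in the same order of libraries. Neutrophil-like cells held 2.43% in the PTH library and 10.9% in the YKL library, against 37.9% in the control library. The numbers of cells moved the same way, with 21 neutrophil-like cells in the PTH library and 15 in the YKL library, against 432 in the control library.

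**Figure D1:**
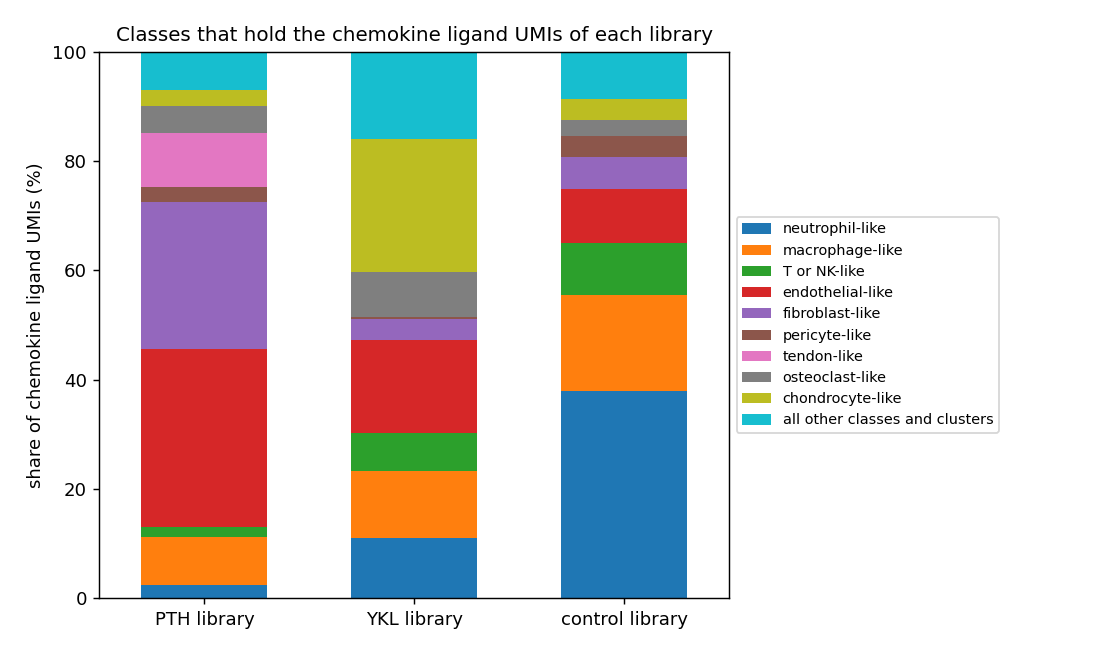
Share of all chemokine ligand UMIs held by each cell class, in percent of the library's chemokine UMIs, as 1 stacked bar each for the PTH, YKL and control libraries. Endothelial-like and fibroblast-like cells held 32.6% and 27.0% in the PTH library, and neutrophil-like cells 37.9% in the control library.

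Per class, chemokine ligands summed to 9087 CPM in PTH, 6403 CPM in YKL and 5558 CPM in control neutrophil-like cells. In macrophage-like cells the sums were 3392 CPM in PTH, 3341 CPM in YKL and 3757 CPM in control cells. In chondrocyte-like cells, the most numerous class, they were 42.4 CPM in PTH, 68.1 CPM in YKL and 38.7 CPM in control cells. Chondrocyte-like cells thus had the lowest level of these 3 classes in every library.

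**Figure D2:**
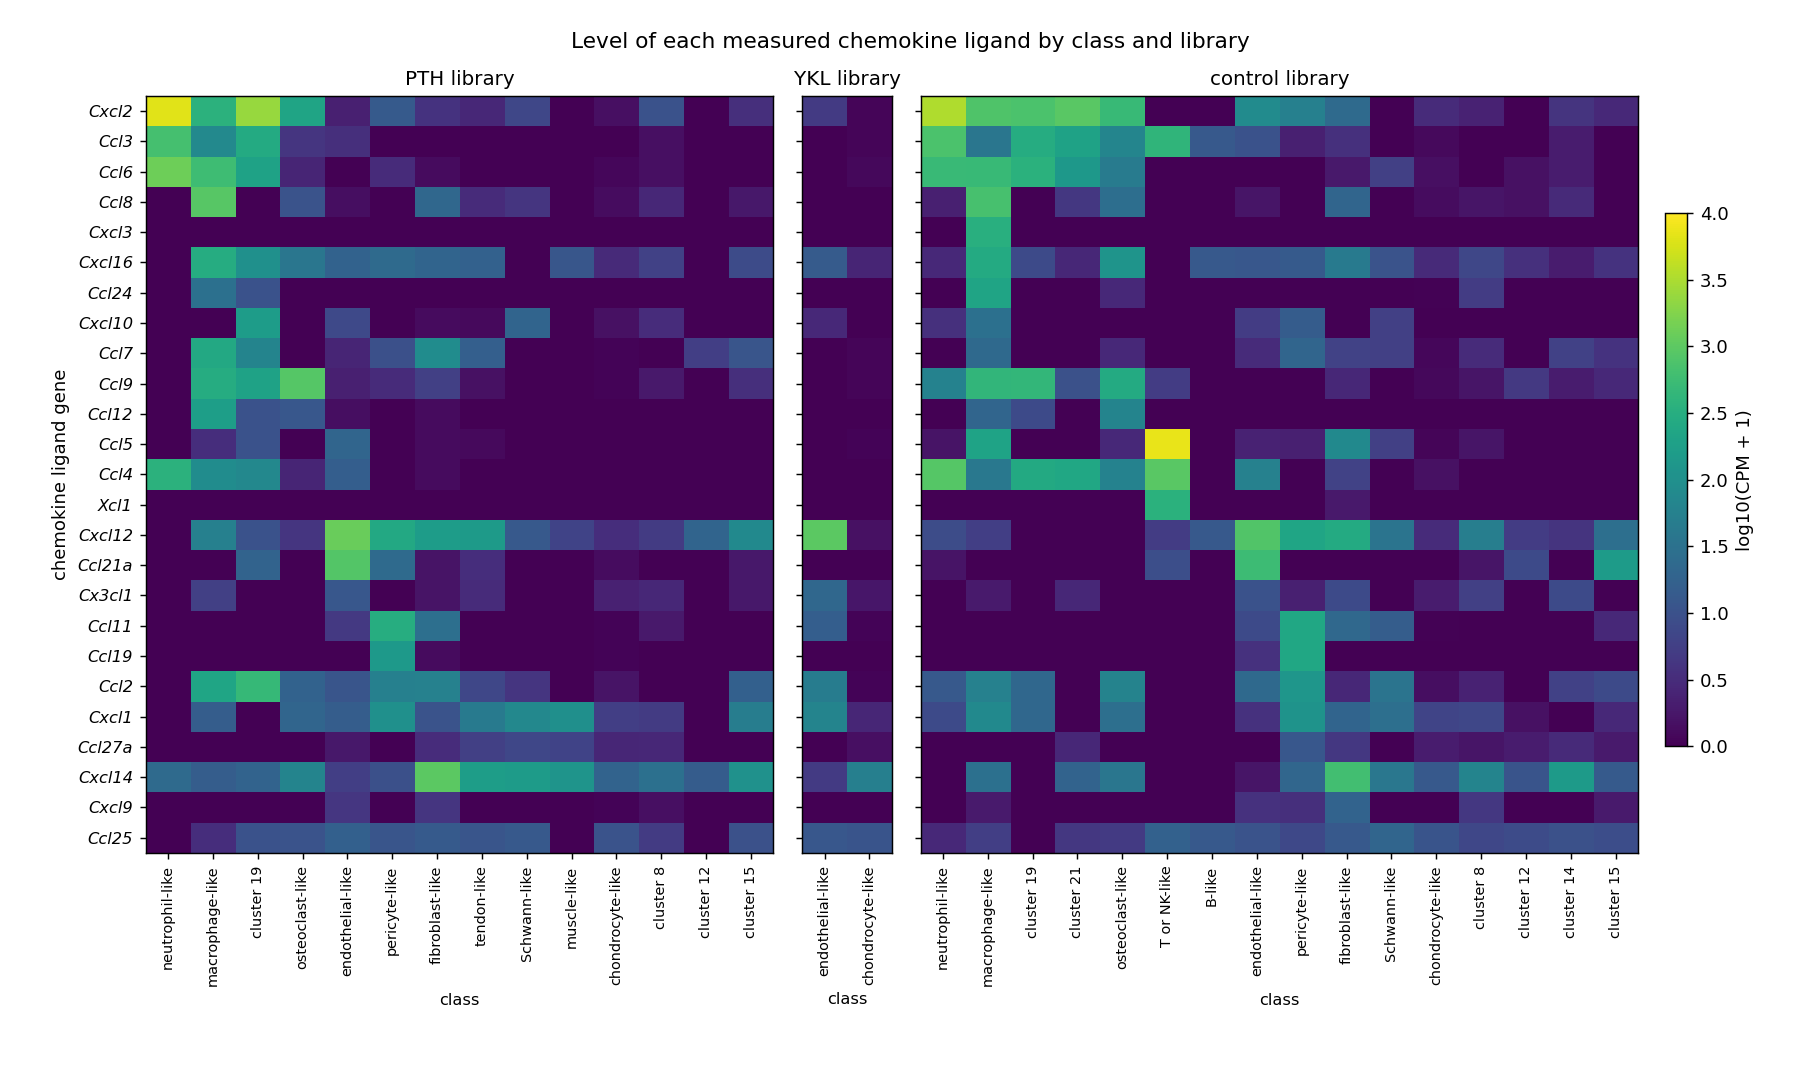
Level of each measured chemokine ligand (rows) in each cell class and library (columns), as log10(CPM + 1) of UMIs summed over the cells of the class, in 1 panel each for the PTH, YKL and control libraries and for classes of at least 20 cells. Most members have their highest level in 1 or a few classes, with Cxcl2 and Ccl3 in neutrophil-like, Ccl5 and Xcl1 in T/NK-like, Ccl8 and Ccl24 in macrophage-like, Cxcl12 in endothelial-like and Ccl19 in pericyte-like cells.

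Neutrophil-like cells were the leading source of Cxcl2, a Cxcr2 ligand that draws neutrophils. Cxcl2 reached 6730 CPM in 21 PTH, 3887 CPM in 15 YKL and 3320 CPM in 432 control neutrophil-like cells. A UMI of Cxcl2 was seen in 273 of the 432 control cells, and after each cell was thinned to 2000 UMIs in 52.7% of them. In chondrocyte-like cells, which should lack it, the thinned share was 0.296%, at a median depth of 16832 UMIs against 3106 in the neutrophil-like cells. Neutrophil-like cells fell into 2 clusters that differed in Cxcl2. In cluster 3, Cxcl2 was at 6730 CPM in PTH, 7454 CPM in YKL and 4486 CPM in control cells. In cluster 20, led by the granule genes Camp, Ngp and Ltf, which mark immature neutrophils, Cxcl2 was at 206 CPM in 54 control cells.

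The same class led for Ccl3, a Ccr1 ligand, and for Ccl6, a Ccr1 ligand of mice. Ccl3 was at 664 CPM in PTH, 726 CPM in YKL and 744 CPM in control neutrophil-like cells, with control T/NK-like cells next at 414 CPM. Ccl6 was at 1305 CPM in PTH, 677 CPM in YKL and 507 CPM in control neutrophil-like cells. Control macrophage-like cells, at 495 CPM, were at 97.5% of that level (95% interval 87.2 to 109%), so the order of these 2 sources was not settled. Of the 121 control neutrophil-like cells with a Ccl4 UMI, 95 also had Ccl3. The 21 PTH and 15 YKL neutrophil-like cells were too few for a comparison between libraries.

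T/NK-like cells were the source of Ccl5, a chemokine of cytotoxic lymphocytes, and of Xcl1, which attracts Xcr1-bearing dendritic cells. Ccl5 was at 7465 CPM in 10 PTH, 5255 CPM in 8 YKL and 7334 CPM in 78 control T/NK-like cells, and these held 84.6% of all Ccl5 UMIs of the control library. The signal came from cluster 23, led by Gzma, Nkg7 and Ncr1, genes of natural killer and cytotoxic T cells. In that cluster Ccl5 was at 13319 CPM in 5 PTH, 17046 CPM in 2 YKL and 14362 CPM in 36 control cells, against 508 CPM in the other T/NK-like cluster of the control library. Xcl1 was at 360 CPM in control T/NK-like cells, which held 98.9% of its UMIs, and 15 of its 19 positive cells also had Ccl5. Ccl4, a close relative of Ccl3, was shared between lineages, at 946 CPM in T/NK-like and 891 CPM in neutrophil-like cells of the control library.

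Macrophage-like cells were the source of 6 measured members in the control library and 5 in the PTH library. Endothelial-like cells led for 6 in the PTH library among classes of at least 20 cells, but not all of these were clear. Ccl5 was at 19.3 CPM there from 1 cell, as the 10 PTH T/NK-like cells were too few to count as a source. Cxcl9 was at 3.28 CPM beside 3.18 CPM in fibroblast-like cells, and Ccl25 had no clear source. Ccl8 was at 923 CPM in 56 PTH and 672 CPM in 117 control macrophage-like cells, which held 93.2% of the control library's Ccl8 UMIs, but in both it came from few cells. It was seen in 13 of 56 PTH and 15 of 117 control cells, and the ratio of PTH to control was 1.37, but 0.748 without the cell with the most UMIs in each library. Ccl24, a Ccr3 ligand that draws eosinophils, was at 28.6 CPM in PTH and 214 CPM in control macrophage-like cells. Cxcl16, a membrane-bound Cxcr6 ligand, was spread more evenly, at 301 CPM in PTH and 279 CPM in control cells. It was seen in 38 of 56 PTH and 85 of 117 control macrophage-like cells. Other members also peaked here in the control library, among classes of at least 20 cells. Cxcl3, a Cxcr2 ligand, was at 327 CPM, Cxcl10, an interferon-induced Cxcr3 ligand, at 28.6 CPM and Ccl7, a Ccr2 ligand, at 22.1 CPM. The source of Ccl7 was not settled, with 62.5% of its 24 UMIs in 1 cell and pericyte-like cells at 18.8 CPM. Pericyte-like cells led for Ccl7 without the 3 cells with the most UMIs and with coarser clusters (resolution 0.4).

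Several members peaked outside these classes. Ccl9, a Ccr1 ligand of mice that osteoclasts are known to make, was at 895 CPM in 23 PTH, 479 CPM in 10 YKL and 276 CPM in 29 control osteoclast-like cells. In the control library its highest level, 451 CPM, was instead in cluster 19, an unnamed myeloid cluster led by Lyz2 and S100a8, with macrophage-like cells at 427 CPM. Cluster 19 also held the highest Ccl2 level of the PTH library, 478 CPM in 24 cells. The same cluster had 1538 CPM in 8 YKL cells and 20.8 CPM in 27 control cells. Its Cxcl10 was at 162 CPM in the PTH library, with no UMI in YKL or control cells.

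Endothelial-like cells were the leading source of Cxcl12, the Cxcr4 ligand that retains blood stem cells in marrow. Cxcl12 was at 1210 CPM in 301 PTH, 978 CPM in 56 YKL and 815 CPM in 192 control endothelial-like cells. It was seen in 196 PTH, 40 YKL and 111 control cells, and the thinned shares were 48.7%, 51.1% and 47.3%. The class was not uniform, and its clusters 16 and 2 did not keep 1 order of libraries. In cluster 16, led by Stmn2 and Cldn5, Cxcl12 was at 2016 CPM in PTH, 3396 CPM in YKL and 1082 CPM in control cells. In the larger cluster 2 it was at 1110 CPM in PTH, 607 CPM in YKL and 817 CPM in control cells.

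Cluster 26, with 15 cells led by the lymphatic endothelial genes Lyve1, Mmrn1 and Prox1, nearly lacked Cxcl12, with 2 UMIs in all, and held Ccl21a, the Ccr7 ligand that guides dendritic cells into lymph vessels. All 10 PTH cells and all 4 control cells of that cluster had Ccl21a, with 2069 UMIs in the PTH and 784 in the control cells, and the 1 YKL cell had none. Every Ccl21a UMI of the endothelial-like class was in this cluster except 2 in control cells. In the control library 80.3% of the class's Ccl21a came from 1 cell. Cx3cl1, a membrane-bound chemokine of endothelium and neurons, was low throughout, at 11.1 CPM in PTH, 20.6 CPM in YKL and 9.01 CPM in control endothelial-like cells.

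Pericyte-like cells were the leading source of Ccl11, the Ccr3 ligand eotaxin, and of Ccl19, a Ccr7 ligand made by stromal cells of lymphoid tissue. Ccl11 was at 306 CPM in 62 PTH and 242 CPM in 84 control pericyte-like cells, which held 82.5% of the control library's Ccl11 UMIs. Ccl19 was at 139 CPM in PTH and 242 CPM in control cells, which held 98.0% of its UMIs. All 19 control cells with Ccl19 also had Ccl11, as did 13 of the 16 PTH cells. The 8 YKL pericyte-like cells had no Ccl19 UMI and 3 Ccl11 UMIs. In the control library the pericyte-like class also led for Ccl2 at 124 CPM, for Cxcl1 at 113 CPM and for Ccl27a, a Ccr10 ligand, at 11.3 CPM. It held 23.7% of the library's Cxcl1 UMIs and 20.5% of its 44 Ccl27a UMIs, the latter in 8 cells. By number of UMIs chondrocyte-like cells led for Cxcl1 and Ccl27a, and without doublet calls macrophage-like cells led for Cxcl1.

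Fibroblast-like cells, led by Pi16 and Clec3b, were the leading source of Cxcl14, a chemokine of fibroblasts and epithelia. Cxcl14 was at 995 CPM in 280 PTH, 391 CPM in 18 YKL and 622 CPM in 111 control fibroblast-like cells. Thinned shares were 44.0% of PTH, 41.2% of YKL and 32.4% of control cells. Cxcl9, an interferon-induced Cxcr3 ligand, was at 3.18 CPM in PTH and 17.4 CPM in control fibroblast-like cells, from 10 and 20 UMIs. Tendon-like cells, nearly all of them in the PTH library, had 167 CPM of Cxcl14 and 148 CPM of Cxcl12 in 229 PTH cells. Ccl25, known from thymus and gut, had no clear source: it was at 9.49 CPM in PTH, 9.89 CPM in YKL and 10.0 CPM in control chondrocyte-like cells and between 9.71 and 15.6 CPM in endothelial-like cells of the 3 libraries. Its gene overlaps Elavl1 on the opposite strand in the annotation used here, and whether that adds to its counts was not tested.

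Droplet libraries carry free RNA from broken cells, which gives every class a low count of the members of an abundant source. For each member whose source class held at least 50 of its UMIs, its level in other classes was set against that of the source class's own markers in the same cells. In the control library this gave 162 pairs of member and class over 18 members: 48 were above the marker level, 11 were not separated from it and 103 were at or below it, 73 of these with no UMI. In the PTH library 32 of 117 pairs were above, 15 not separated and 70 at or below. Both pairs of the YKL library were at or below, namely Cxcl12 in chondrocyte-like and Cxcl14 in endothelial-like cells. The second takes chondrocyte-like cells as the source of Cxcl14, since the 18 YKL fibroblast-like cells were under the minimum of 20. The control and PTH counts include Cxcl14 in chondrocyte-like cells, a pair for which the check gives no reading. With the median over markers that peaked in the source class in place of the sum, 58 control and 40 PTH pairs were above. By that measure 91 control and 59 PTH pairs were at or below.

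The check separated second sources from background. In control macrophage-like cells Cxcl2 was at 23.8% of its neutrophil-like level while neutrophil markers were at 0.0491% of theirs, and Ccl6 was at 97.5%. Cxcl12 was at 34.1% of its endothelial-like level in control fibroblast-like cells and at 27.1% in pericyte-like cells, where endothelial markers were at 1.08% and 6.12%. In control chondrocyte-like cells, by contrast, Cxcl12 was at 0.258% and endothelial markers at 0.303%, and Ccl5 at 0.00176% and T/NK markers at 0.0244%. These 2 are read as background. For Cxcl14, at 1.93% beside fibroblast markers at 13.4%, the check gives no reading, since the list holds genes that chondrocyte-like cells had at a high level, such as Col3a1 in 78.5% of thinned control cells. Cxcl1 was an exception, at 5.02% of its pericyte-like level in control chondrocyte-like cells with pericyte markers at 0.101%. It was seen there in only 39 of 1375 cells, with 29.5% of its UMIs in 1 cell. Its source was not settled between pericyte-like and macrophage-like cells, and it was not set against macrophage markers. With cells over 5% mitochondrial reads left out and the rest clustered anew, 11 of the 25 measured members kept the control source given here, and those that did not included every member given here with a T/NK-like or pericyte-like source. Some pairs above the marker level rested on few cells: Ccl5 in control macrophage-like cells came from 5 of 117 cells and Ccl4 in control endothelial-like cells from 3 of 192.

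**Figure D3:**
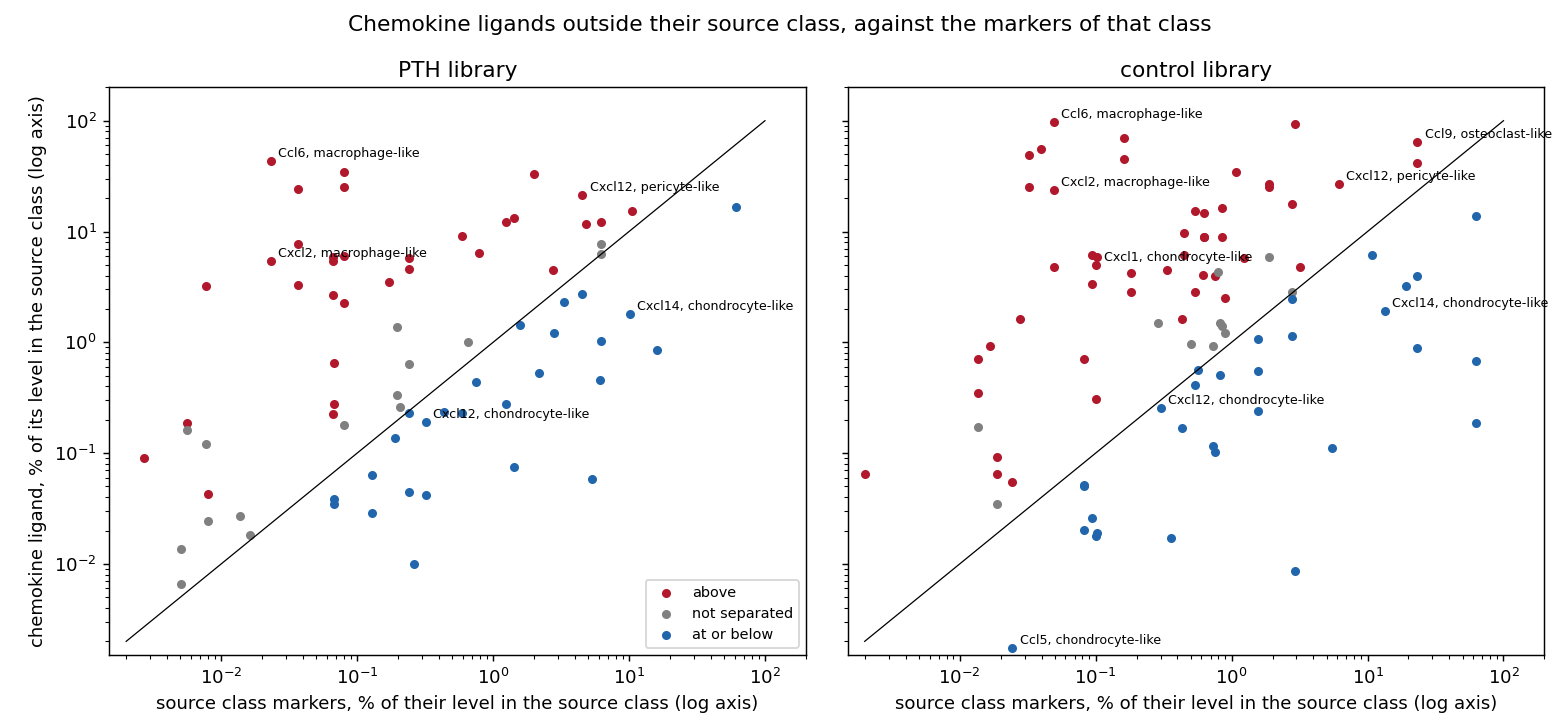
Free RNA check in the PTH (left) and control (right) libraries. Each point is a chemokine ligand in a class other than its source, with its level as a percent of its source class on the vertical axis and the source class's markers, measured in the same cells, on the horizontal axis, both on log scales. Colours mark members above, not separated from, and at or below the marker level, and the diagonal marks equal percents. Members far above the line include Cxcl2 in control macrophage-like cells at 23.8% against 0.0491% for the markers.

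PTH and control cells were compared within the 6 classes that had at least 50 cells in both libraries, over genes with at least 50 UMIs there. A ratio of CPM counted as changed in size if it was at least 1.5 or at most 0.667. In macrophage-like cells 5 of the 14 chemokines counted were higher and 5 lower in the PTH library, where 29.8% of all genes passed the same limit. The median log2 ratio was 0.15 for chemokines, with Cxcl3, which had no PTH UMI, set at 3 UMIs, and 0.13 for all genes. Medians of all genes, here and below, leave out genes with no UMI in 1 of the libraries.

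Ccl2, Ccl7 and Ccl12 are the monocyte attractants that bind Ccr2. Ccl7 was at 255 CPM in PTH and 22.1 CPM in control macrophage-like cells, from 107 and 24 UMIs in 14 of 56 and 7 of 117 cells, a ratio of 11.5 (95% interval 7.36 to 18.8). Ccl12 was at 177 CPM in PTH and 19.3 CPM in control cells, in 10 of 56 and 11 of 117 cells, a ratio of 9.12 (5.56 to 15.6). Ccl2 was at 224 CPM in PTH and 56.2 CPM in control cells, in 16 of 56 and 13 of 117 cells, a ratio of 3.99 (2.86 to 5.602). The 3 genes were often in the same PTH cells, since 9 of the 16 cells with Ccl2 and 8 of the 10 cells with Ccl12 also had Ccl7. Thinned to equal depth, 17.9% of PTH and 1.77% of control macrophage-like cells had a Ccl7 UMI, against 0% of 592 PTH chondrocyte-like cells, which should lack it. Median depths were 6049 UMIs in the PTH and 6564 in the control macrophage-like cells, and 18277 in the PTH chondrocyte-like cells. Without the cell with the most UMIs the ratios of Ccl7, Ccl12 and Ccl2 were 22.7, 10.6 and 5.56, and with coarser clusters (resolution 0.4) they were 6.56, 2.30 and 1.73.

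Cxcl1, Cxcl2 and Cxcl3 bind Cxcr2, and their genes lie in 1 cluster on chromosome 5. Cxcl2 was at 365 CPM in PTH and 791 CPM in control macrophage-like cells, in 25 of 56 and 50 of 117 cells, a ratio of 0.461 (0.386 to 0.548). Cxcl1 was at 14.3 CPM in PTH and 79.2 CPM in control cells, in 4 of 56 and 23 of 117 cells, a ratio of 0.181 (0.0645 to 0.410). Cxcl3 had no UMI in 56 PTH cells and 355 UMIs in 10 of 117 control cells, which with 3 UMIs as the limit for a count of 0 is at least 45.7-fold lower. Without the control cell with the most Cxcl3 that ratio is at most 0.0311, and without the top 3 at most 0.0713. In share of cells with a UMI, 0 of 56 allows up to 5.36% by the same limit of 3, and the control share was 8.55% (exact binomial interval 4.17 to 15.2%). Of the 10 control cells with Cxcl3, 8 also had Cxcl2.

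The promoters of these genes are shown because Cxcl1, Cxcl2 and Cxcl3 share a motif close to the start site, with Cxcl10 as a member whose match has other letters. The windows run from -120 to -31 relative to the start in RefSeq's GRCm38.p6 annotation, and capitals mark matches to the NF-kB consensus, searched on both strands over the 250 bases before each start.
Cxcl1, chr5:90891125-90891214, + strand: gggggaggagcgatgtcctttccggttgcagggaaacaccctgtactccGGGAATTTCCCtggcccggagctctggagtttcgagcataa
Cxcl2, chr5:90903779-90903868, + strand: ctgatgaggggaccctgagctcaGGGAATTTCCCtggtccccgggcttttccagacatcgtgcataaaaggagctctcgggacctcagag
Cxcl3, chr5:90785981-90786070, + strand: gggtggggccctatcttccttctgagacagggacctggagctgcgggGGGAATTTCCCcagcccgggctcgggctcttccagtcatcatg
Cxcl10, chr5:92348920-92349009, - strand: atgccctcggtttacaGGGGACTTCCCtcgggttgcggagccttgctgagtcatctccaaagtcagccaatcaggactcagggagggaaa

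The same 11 letters stand in the Cxcl1, Cxcl2 and Cxcl3 windows. The consensus was found in 5 of the 18 measured members with a promoter entry, Ccl9 and Cxcl10 being the others, and in 8.23% of 27025 genes. The core of the interferon response element was in Ccl19, Cxcl10 and Cxcl14 and in 3.46% of genes, the cAMP response element TGACGTCA in none of the 18 and 1.77% of genes, and TATAAA in 7 of 18 and 14.3% of genes. A match is a description of letters and says nothing of binding in these cells. Ccl2, Ccl4, Ccl5, Ccl7, Ccl11, Ccl24 and Cxcl16 were not in the promoter table used.

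The other chemokines of macrophage-like cells were less steady. Ccl3 and Ccl4 had ratios of 2.12 (1.29 to 3.48) and 2.17 (1.35 to 3.46), and without the 3 cells with the most UMIs that of Ccl3 was 1.35. With coarser clusters (resolution 0.4) they were 0.705 and 0.767, so their direction was not fixed. Ccl24 had a ratio of 0.134, with 12 PTH and 232 control UMIs in 8 and 9 cells, but 0.925 without the top 3 cells. Ccl5 had 1 UMI in PTH and 226 in control cells, and did not pass the limit without the top 3 cells. Ccl6 at 1.14, Cxcl16 at 1.08 and Ccl9 at 0.698 were within 1.5-fold, but at resolution 0.4 they were past it, at 0.651, 0.628 and 1.74, with each on the other side of 1.

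Other values moved with the macrophage-like differences. Of 16 genes known to be induced by tissue dissociation or heat shock, such as Fos and Jun, 8 were higher in PTH cells and none lower, at summed levels of 9473 CPM in PTH and 6112 CPM in control cells. The 8 probes of free RNA, haemoglobin, S100a8, S100a9, Col2a1 and Ibsp, were all lower, at 22882 CPM in PTH and 56471 CPM in control cells. The 11 neutrophil markers summed to 52.5 CPM in PTH and 193 CPM in control macrophage-like cells, with 6 markers at 0 in PTH and 3 at 0 in control cells, Ly6g, Ngp and Cd177 among both. Of 10 NF-kB response genes counted, 4 were higher and 3 lower. Their part in the chemokine ratios was not tested.

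**Figure D4:**
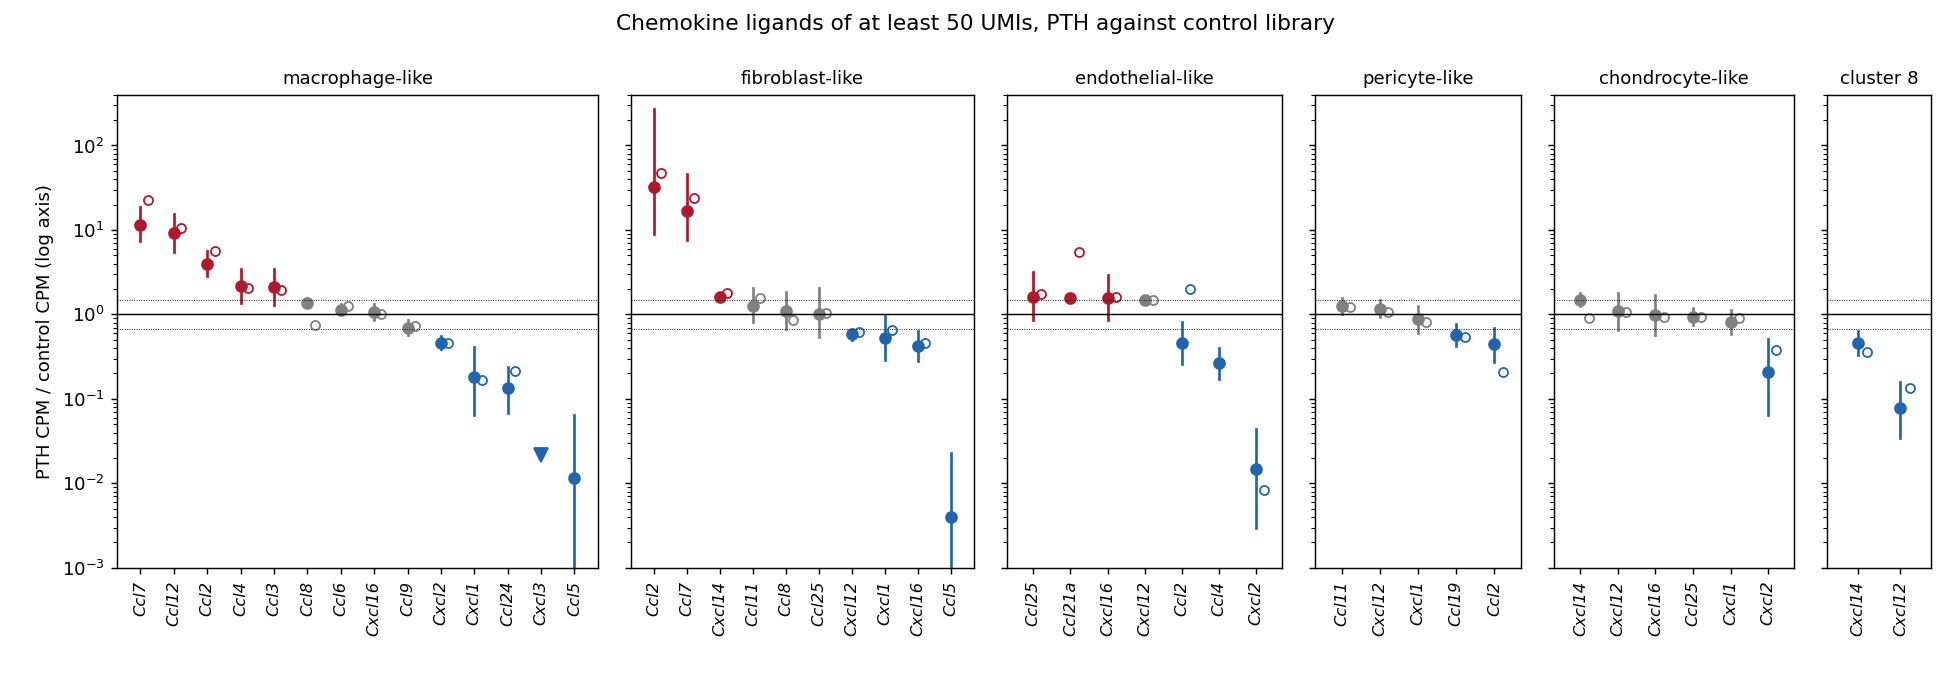
Ratio of PTH to control CPM for each chemokine ligand with at least 50 UMIs in a class, on a log axis, with 95% intervals for counting error only and dotted lines at 1.5 and 0.667. Open circles leave out the cell with the most UMIs of the member in each library, the triangle is the upper limit for Cxcl3 with no PTH UMI, and red and blue mark ratios past the lines. In macrophage-like cells Ccl7, Ccl12 and Ccl2 lie above the upper line and Cxcl1, Cxcl2 and Cxcl3 below the lower line, and in fibroblast-like cells Ccl2 and Ccl7 lie above.

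Ccl2 and Ccl7 were also higher in PTH fibroblast-like cells. Of 10 chemokines counted, 3 were higher and 4 lower, where 16.9% of all genes passed the limit, and the median log2 ratio was 0.08 for chemokines and -0.01 for all genes. Ccl7 was at 88.2 CPM in PTH and 5.23 CPM in control cells, in 79 of 280 and 4 of 111 cells, a ratio of 16.9 (7.65 to 46.3), and 84.7 without the top 3 cells of each library. Thinned shares were 10.9% of PTH and 0.901% of control cells, at median depths of 10776 and 9663 UMIs. Ccl2 was at 57.0 CPM in PTH and 1.74 CPM in control cells, from 179 and 2 UMIs in 18 of 280 and 2 of 111 cells, a ratio of 32.7 (8.92 to 272), and at least 5.84 without the top 3 cells of each library, which left no control UMI and set it at the limit of 3. Of the 18 PTH cells with Ccl2, 13 also had Ccl7. In these cells the 13 macrophage markers summed to 32.5 CPM in PTH and 189 CPM in control cells. Adgre1 was at 0 in PTH cells and none was at 0 in control cells. Only 1 of the 13, Lyz2, had enough UMIs for a ratio, and it was lower in PTH cells. Lyz2 is also among the leading genes of the neutrophil-like clusters 3 and 20. The part of these markers in the Ccl2 and Ccl7 ratios was not tested.

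Cxcl14 and Cxcl12, the main chemokines of fibroblast-like cells, moved apart. Cxcl14 was at 995 CPM in PTH and 622 CPM in control cells, in 176 of 280 and 67 of 111 cells, a ratio of 1.60 (1.47 to 1.74). Cxcl12 was at 161 CPM in PTH and 278 CPM in control cells, in 160 of 280 and 75 of 111 cells, a ratio of 0.580 (0.503 to 0.670), and 0.689, inside the limit, without the top 3 cells. Cxcl16 was also lower at 0.425 (0.285 to 0.635). Cxcl1 was lower at 0.522, but 1.10 without the top 3 cells. Ccl5 was lower on the strength of 3 control cells. Among interferon response genes 6 of 7 counted were higher in PTH fibroblast-like cells, at 329 CPM against 78.5 CPM in control cells, and 6 of 15 dissociation genes were higher. Their part was not tested.

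In endothelial-like cells 3 of 7 chemokines were higher and 3 lower in the PTH library, where 13.5% of all genes passed the limit, and the median log2 ratio was 0.57 for chemokines and 0.13 for all genes. Cxcl12, the main product of the class, had a ratio of 1.48 (1.39 to 1.59), just inside the limit, but 3.66 when cells over 5% mitochondrial reads were left out. Ccl21a was at 848 CPM in PTH and 545 CPM in control cells, a ratio of 1.56 (1.43 to 1.69), but 5.49 without the cell with the most UMIs in each library and 0.499 when cells over 5% mitochondrial reads were left out, so its direction was not fixed. Cxcl16 at 1.55 (0.854 to 2.96) and Ccl25 at 1.60 had intervals that include 1. Cxcl2 was lower, with 3 UMIs in PTH and 121 in control cells, a ratio of 0.0147, and 0.131 at a mitochondrial limit of 20%. Ccl2 was lower at 0.462, but 2.01 without the top cell, and Ccl4 was lower from 1 PTH and 3 control cells. Neutrophil markers summed to 36.9 CPM in PTH and 3498 CPM in control endothelial-like cells, with 5 of 11 at 0 in PTH and none in control cells, and the 8 free RNA probes to 12211 CPM and 84663 CPM. Their part in the Cxcl2 ratio was not tested. Interferon response genes were higher for 9 of 10, at 545 CPM in PTH and 245 CPM in control cells.

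In pericyte-like cells none of 5 chemokines was higher and 2 were lower, where 17.3% of all genes passed the limit, and the medians were -0.19 and 0.10. Ccl19 was at 139 CPM in PTH and 242 CPM in control cells, in 16 of 62 and 19 of 84 cells, a ratio of 0.575 (0.428 to 0.764). Ccl2 had a ratio of 0.441, from 26 and 99 UMIs in 4 and 14 cells, and 0.874 without doublet calls. Ccl11 at 1.26, Cxcl12 at 1.17 and Cxcl1 at 0.877 stayed within the limit. The neutrophil markers summed to 12.6 CPM in PTH and 1698 CPM in control pericyte-like cells, with 8 of 11 at 0 in PTH and 1 in control cells, and the 8 free RNA probes to 12401 CPM and 63663 CPM. Of 16 chondrocyte markers counted, 11 were lower in PTH cells, and of 15 dissociation genes 4 were higher and 1 lower. Their part was not tested. Thinned shares of cells with Ccl19 were 16.9% of PTH and 21.7% of control cells.

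In chondrocyte-like cells 1 of 6 chemokines passed the limit, Cxcl2 being lower, with 8.58% of all genes past it and medians of -0.05 and -0.02. Cxcl2 had 5 UMIs in 607 PTH and 50 UMIs in 1375 control cells, a ratio of 0.207 (0.0643 to 0.515), which was 0.941 at a mitochondrial limit of 20%, beside neutrophil markers at 11.4 CPM and 74.0 CPM, with 3 of 11 at 0 in PTH and none in control cells. In cluster 8, which is led by Ibsp and Cthrc1 and was left unnamed, both chemokines counted were lower in the PTH library, where 11.2% of all genes passed the limit. There Cxcl12 had 9 UMIs in 138 PTH and 74 in 110 control cells, a ratio of 0.0783 (0.0345 to 0.157). A single cell held 60.8% of the control UMIs, and without the top 3 cells of each library there were 3 and 11 UMIs, a ratio of 0.176. Cxcl14 in cluster 8 was at 28.7 CPM in PTH and 62.5 CPM in control cells, a ratio of 0.460. The 11 pericyte markers summed to 94.6 CPM in PTH and 244 CPM in control cells of cluster 8, with Tagln and Acta2 lower. Of 14 dissociation genes counted there, 6 were higher in the PTH library. Their part was not tested.

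YKL and control cells could be compared only in chondrocyte-like and endothelial-like cells. In chondrocyte-like cells 1 of 6 chemokines was higher and 3 were lower in the YKL library, where 18.2% of all genes passed the limit, and the median log2 ratio was -1.02 for chemokines and -0.01 for all genes. Cxcl14 was at 52.0 CPM in YKL and 12.02 CPM in control cells, from 679 and 280 UMIs in 80 of 414 and 152 of 1375 cells, a ratio of 4.33 (3.76 to 4.995), and 7.67 with a higher minimum of genes per cell. Thinned shares were 5.47% of 402 YKL and 2.15% of 1351 control cells, at median depths of 30439 and 16832 UMIs. The free RNA check gives no reading for Cxcl14 in this class.

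Cluster 7, the chondrocyte-like cluster led by Col10a1, Ibsp, Ihh and Mmp13, genes of hypertrophic cartilage, held 68.5% of the class's Cxcl14 UMIs in the PTH library, 80.0% in the YKL library and 30.7% in the control library. In control cells cluster 0 held nearly as much, 30.4%, and 69.3% lay outside cluster 7. In cluster 7 Cxcl14 was at 104 CPM in 81 PTH, 192 CPM in 106 YKL and 51.6 CPM in 116 control cells. It was seen in 17 PTH, 21 YKL and 14 control cells of the cluster, and single cells carried much of it: the 3 highest YKL cells had 147, 130 and 81 UMIs, the highest PTH cell 94 and the highest control cell 33. Without cluster 7 the chondrocyte-like level was 6.44 CPM in PTH, 13.3 CPM in YKL and 8.97 CPM in control cells. Without the top 3 cells of each library the YKL to control ratio was 2.63. When only cells with at most 5% mitochondrial reads were kept and clustered anew, it was 0.968; with the clusters kept as they were, it was 4.47. The ratio therefore depended on which cells were counted as chondrocyte-like.

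**Figure D5:**
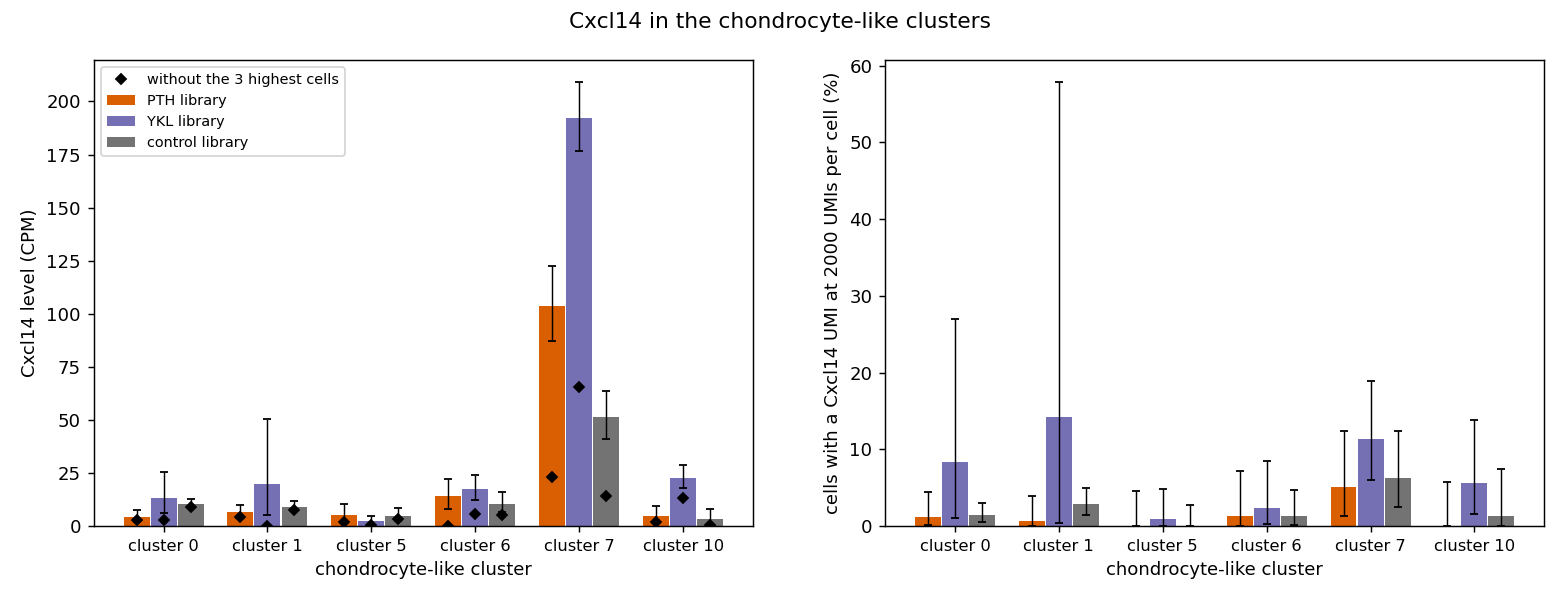
Cxcl14 in chondrocyte-like cells of the PTH, YKL and control libraries, by cluster, as CPM of summed UMIs (left) and as the share of cells with a UMI after thinning to 2000 UMIs (right), with 95% intervals for counting error only and diamonds for the level without the 3 highest cells. Cluster 7 stands highest in each library, at 104 CPM in PTH, 192 CPM in YKL and 51.6 CPM in control cells.

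Among the lower members of YKL chondrocyte-like cells, Cxcl1 was at 1.69 CPM in YKL and 5.67 CPM in control cells, a ratio of 0.298 (0.180 to 0.470), and 0.535 with clusters weighted equally. Cxcl2 had 2 UMIs in YKL and 50 in control cells, and Cxcl12 had 7 and 49. Neutrophil markers summed to 23.0 CPM in YKL and 74.0 CPM in control cells, with 4 of 11 at 0 in YKL and none in control cells, and the 8 erythroid markers to 292 CPM and 2783 CPM. For Cxcl12 both levels are read as background. Of 16 dissociation genes 6 were higher and none lower in YKL chondrocyte-like cells, at 7436 CPM against 5466 CPM in control cells. Their part was not tested.

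In endothelial-like cells 1 of 5 chemokines was higher and 3 were lower in the YKL library, where 17.2% of all genes passed the limit. The median log2 ratio was 0.11 for all genes with a UMI in both libraries. That of the 5 chemokines, -3.31, is the value of Ccl4, which had no YKL UMI and was set at the limit of 3 UMIs. It is therefore a limit and not like the median of all genes. Cxcl12 was within the limit, at 978 CPM in YKL and 815 CPM in control cells, a ratio of 1.199 (1.08 to 1.33). Ccl21a had no UMI in 56 YKL cells and 786 in control cells, at least 97.2-fold lower by the 3-UMI limit (a ratio of at most 0.253 without the top 3 cells), but the YKL library held 1 cell of the lymphatic cluster against 4 in the control library. Cxcl2 had 2 UMIs in YKL and 121 in control cells. Beside it, neutrophil markers summed to 35.5 CPM in YKL and 3498 CPM in control endothelial-like cells, with 6 of 11 at 0 in YKL and none in control cells, and the 8 free RNA probes to 28687 CPM and 84663 CPM. Of 14 dissociation genes 8 were higher in the YKL cells. Their part was not tested. Ccl4 had none in YKL and 80 in 3 control cells, so without the top 3 cells no ratio is left. Ccl2 had a ratio of 2.11 from 2 YKL and 4 control cells.

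Against the PTH library, YKL chondrocyte-like cells had 1 of 3 chemokines higher and 1 lower, where 12.4% of all genes passed the limit. Cxcl14 was at 52.0 CPM in YKL and 18.0 CPM in PTH cells, a ratio of 2.89 (2.47 to 3.40). It was 1.27 at a mitochondrial limit of 5%, 1.88 with clusters weighted equally, 5.43 after thinning and 4.22 without the top cell. Cxcl1 had a ratio of 0.366. Endothelial-like cells had 2 of 4 higher and 1 lower, where 18.2% of all genes passed the limit. Cxcl12 was at 978 CPM in YKL and 1210 CPM in PTH cells, a ratio of 0.808. Ccl21a was lower, with no UMI in YKL and 2069 in PTH cells. Cxcl1 at 4.30 and Ccl2 at 4.56 were higher, but 1.52 and 1.34 without the top cell. All comparisons with 1 library use the same cells of it, so the ratios against PTH and against control are not independent.

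Over all kept cells of a library, levels also carry the class shares. Cxcl14 was at 161 CPM in PTH and 37.3 CPM in control cells, and Cxcl12 at 161 CPM and 50.9 CPM. With the class shares of the control library applied over 12 classes, the PTH levels became 54.0 CPM for Cxcl14 and 68.6 CPM for Cxcl12, against 34.4 CPM and 53.6 CPM in the control library. Cxcl2 turned round, at 34.8 CPM in PTH and 198 CPM in control cells as captured, but 334 CPM and 194 CPM at fixed shares, on the strength of 21 PTH neutrophil-like cells. Ccl7 stayed apart, at 17.6 CPM in PTH and 1.88 CPM in control cells as captured, and 12.1 CPM and 1.73 CPM at fixed shares. The number of cells of a class and its capture in the digest cannot be told apart here.

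The receptors of these ligands had their own sources. Of the control library's classes, neutrophil-like cells had the highest level of Cxcr2 at 358 CPM and of Ccr1 at 385 CPM, and cluster 19 of Ccr2 at 826 CPM. Ackr1, the atypical receptor of venules, was highest in endothelial-like cells, at 139 CPM in PTH, 59.8 CPM in YKL and 144 CPM in control cells. In macrophage-like cells Ccr2 and Cxcr4 were past the 1.5-fold limit, higher in the PTH library. Ackr3, which takes up Cxcl12, was at 134 CPM in PTH and 42.7 CPM in control fibroblast-like cells, where the Cxcl12 ratio was 0.580. Ackr3 was also past the limit, higher in the PTH library, in endothelial-like cells, where the Cxcl12 ratio was 1.48. Whether Ackr3 and Cxcl12 levels are linked was not tested. In YKL chondrocyte-like cells Ackr3 was at 66.5 CPM. Pf4, a CXC chemokine outside the symbol rule, was at 1264 CPM in PTH and 1340 CPM in control macrophage-like cells.

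Neighbouring genes did not share 1 source by the highest CPM in the control library, though several of these sources were near ties. On mm10 chromosome 11, the interval chr11:82035571-82305690 holds Ccl2, Ccl7, Ccl11, Ccl12, Ccl8 and Ccl1. In the control library 5 of its members were measured. Ccl2 and Ccl11 peaked in pericyte-like cells, Ccl7 and Ccl8 in macrophage-like cells and Ccl12 in osteoclast-like cells, the last from 1 cell. Ccl7 was nearly as high in pericyte-like cells, at 18.8 CPM against 22.1 CPM. The interval chr11:83525778-83664683 holds Ccl5, Ccl9, Ccl6, Ccl3 and Ccl4, which peaked in T/NK-like, cluster 19 and neutrophil-like cells. Ccl9 was at 451 CPM in cluster 19 and 427 CPM in macrophage-like cells. Ccl4 was at 946 CPM in T/NK-like and 891 CPM in neutrophil-like cells. Cxcl5, Cxcl3, Cxcl15, Cxcl1 and Cxcl2 lie in chr5:90759360-90905938, and their 3 measured members peaked in 3 different classes. Cxcl1 moved to macrophage-like cells, the source of Cxcl3, without doublet calls, without the highest doublet scores and at a mitochondrial limit of 5%. Over 32 sums of class and library, the pairs with the most similar profiles were Ccl3 and Ccl4 at a Pearson correlation of 0.96, Cxcl2 and Ccl6 at 0.91, and Ccl11 and Ccl19 at 0.90. These describe sums that share libraries and depth. The next most similar was Cxcl3 and Ccl24 at 0.90, both carried by few control macrophage-like cells.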

How the data were processed

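The authors deposited 1 sparse matrix of UMI counts per library with its gene and barcode lists. The header of each deposited matrix names Cell Ranger 4.0.0. The submitters' processing notes name mm10 and Seurat. The counts were used as deposited. Kept cells had at least 500 genes and at most 10% mitochondrial UMIs, and no doublet was removed. With scanpy 1.11.5, counts were normalised to 10000 per cell and log-transformed, and 2000 variable genes without the chemokine ligands gave 30 principal components, 15 neighbours and Leiden clusters at resolution 0.8. Clusters were named from marker lists. A cluster stayed unnamed where folds and detected markers pointed to different classes, or where genes of another class, cell cycle genes or haemoglobin led it.

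UMIs were summed per class and library and divided by the class total. Source classes needed 20 cells in the library, and comparisons 50 cells in both. Sums have exact Poisson, shares Clopper-Pearson and ratios conditional binomial 95% intervals. UMIs limit PCR duplicates, but intervals and floors of 3 counts cover counting error only. No test was made, since each group is 1 library. Shares of cells were also computed after thinning to 2000 UMIs, without 342 shallower cells. Every chemokine row is accounted for, and those with at least 50 UMIs, over all cells or in both libraries of a class, are named with values. The calling of ratios was checked on simulated sums with counting error only, in which the changed genes had many UMIs. That check does not cover spread between cells or members held mostly by single cells. Positions come from the GENCODE annotation of GRCm38, in which 37 of 44 rows were found, and promoters from RefSeq's GRCm38.p6, in which 18 of 25 measured members were found. The members and gene lists were chosen with earlier results of these data known. Alternatives changed the cell filters, doublets, clustering, scaling, depth, minimum counts and free RNA, and left out single cells.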

Additional observations from a re-analysis of the deposited data

Results flagged for a closer look

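Ccl2 differed in direction between classes under the same contrast. The ratio of PTH to control was 32.7 in fibroblast-like and 3.99 in macrophage-like cells, against 0.462 in endothelial-like and 0.441 in pericyte-like cells. The endothelial-like value was 2.01 without the cell with the most UMIs. Ccl4 had ratios of 2.17 in macrophage-like and 0.266 in endothelial-like cells, the second from 1 PTH and 3 control cells. Cxcl14 had ratios of 1.60 in fibroblast-like cells and 0.460 in cluster 8. Cxcl1 had ratios of YKL to PTH of 4.30 in endothelial-like and 0.366 in chondrocyte-like cells, and the first was 0.912 without the top 3 cells. These differences between classes were not tested, because each library is 1 sample.

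Barcodes left out by the filters also carried chemokine ligands, at 387 CPM in the PTH library and 96.6 CPM in the YKL library, against 167 CPM in the control library.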

How the results depend on the processing

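No paired analysis was possible because each group is 1 library. Of 941 recomputed ratios 821 stayed within their counting interval without turning, 108 moved outside it and 12 turned from a value past 1.5-fold. Of 601 recomputed values of ratios past 1.5-fold, 566 stayed past it in the same direction. Both tallies include the alternatives in the minimum count of UMIs, which only select members and leave each ratio as it was. Those values could not move, so both tallies overstate how steady the ratios were. The number of measured members was between 21 and 27, against 25. The measured members that kept their control source were 11 of 25 at a mitochondrial maximum of 5% and 16 by thinned share of cells.

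For PTH against control, the count of members past 1.5-fold in chondrocyte-like cells, 1 in the text, was 0 at 5% mitochondrial reads, after thinning and at a minimum of 100 UMIs. It was 2 without the top 5% of Scrublet scores, at resolution 1.2, with the median ratio set to 1, with clusters weighted equally, at a minimum of 20 UMIs, without the top 3 cells and at 5% with clusters kept. In cluster 8 it was 0 at the higher gene minimum and after thinning and 1 at 100 UMIs, against 2. In endothelial-like cells it was 3, against 6, at mitochondrial maxima of 5%, 5% with clusters kept and 20%, without mitochondrial, haemoglobin and ribosomal genes in the total, with the median ratio set to 1 and at 100 UMIs, and 1 after thinning. Thinning left 2 of 7 in fibroblast-like and 3 of 10 in macrophage-like cells, since fewer members reach 50 UMIs, and a minimum of 100 UMIs left 6 in macrophage-like cells. In pericyte-like cells it was 1, against 2, under both doublet alternatives and after thinning, and 5 at 20 UMIs.

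For YKL against control it was 2, against 4, in chondrocyte-like cells at the higher gene minimum and at 100 UMIs, 1 at 5% and after thinning, and 2, against 4, in endothelial-like cells at 100 UMIs and without the top 3 cells. For YKL against PTH it was 1, against 2, in chondrocyte-like cells at the higher gene minimum, at 5%, after thinning and at 100 UMIs, 4 at 20% and 5 at 20 UMIs, and in endothelial-like cells 6 at 20 UMIs and 1 at 100 UMIs, against 3.

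Directions turned as follows, and the cause was not tested. In PTH against control endothelial-like cells, Ccl21a was at 0.499 at 5%, 0.591 at 5% with clusters kept and 0.411 with clusters weighted equally, Ccl4 at 1.06 and 1.01 at 5% without and with clusters kept, and Ccl2 at 2.01 without the top cell and 2.96 without the top 3. In macrophage-like cells Ccl4 was at 0.767 and Ccl3 at 0.705 at resolution 0.4, and in fibroblast-like cells Cxcl1 was at 1.10 without the top 3 cells. In YKL against control, chondrocyte-like Cxcl14 was at 0.968 at 5%. In YKL against PTH, endothelial-like Cxcl1 was at 0.912 without the top 3 cells. No ratio is given where both counts were at or under 3, and a count of 0 against a higher one was set to 3. Subtracting free RNA gives no reading for Cxcl14 in chondrocyte-like cells, which carry fibroblast markers of the list themselves. Leaving out top cells and the lymphatic cluster, keeping clusters at 5% mitochondrial reads, fixed class shares and the marker-median check were added after the data were seen. At a 5% maximum the macrophage-like, fibroblast-like, pericyte-like and YKL endothelial-like cells were too few for a ratio. Scrublet marked 2 PTH, 13 YKL and 43 control cells, and with 2 of 1913 it may not have worked in the PTH library. Depth limits the members with few UMIs and the YKL classes under 50 cells.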
